A study of Mus musculus with 9 samples.

Results

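Transcripts of the mitochondrial genome were followed in 9 RNA-seq libraries of mouse kidney. Every row whose gene symbol starts with mt- was taken as a member, and 37 of the 52160 symbols analysed met this rule. They were 13 protein-coding genes, 2 rRNA genes and 22 tRNA genes. Of the 18067 genes with enough counts to be tested, 26 were members, namely 11 protein-coding, 2 rRNA and 13 tRNA genes. The 11 members below the filter on low counts were mt-Atp8, mt-Nd4l and 9 tRNA genes.

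The libraries were made from whole kidney of mice on the C57Bl/6N background at 16 weeks of age, with 3 libraries in each of 3 groups. In ΔPod mice Ybx1, which encodes a cold shock protein that binds RNA and DNA, had been deleted from podocytes. K2A mice carried in their podocytes a Ybx1 that cannot be secreted, with the lysine changes K299A and K302A in exon 7. WT mice were labelled wild type and control, and a commercial supplier is named for wild-type animals. The labels name neither the promoter or Cre driver nor the sex of the animals, and they call the ΔPod libraries FLOX in a short description. Nothing states that the libraries stem from separate animals, so p-values measure the spread between these samples, which may be technical. Podocytes cover the capillaries of the glomerulus and are a small part of the kidney, so these counts come mostly from other cells.

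Total counts ran from 30776806 to 46852490 per library. Markers of kidney were present throughout, with summed levels from 2182 to 12970 CPM (library-scaled counts) for 6 proximal tubule markers and 4 podocyte markers summed to between 86.2 and 600 CPM. Each library was also classed by the slope of its centred log2 CPM on transcript length. The slope was above 0 in ΔPod 3, K2A 3, WT 1 and WT 3 (the longer-transcript class). It was below 0 in ΔPod 1, ΔPod 2, K2A 1, K2A 2 and WT 2 (the shorter-transcript class). This class runs across the groups. The closest replicates, K2A 1 and K2A 2, still differed by more than sampling noise (chi-square per degree of freedom 9.82). Xist ranged over 17.0 to 124 CPM in ΔPod libraries and 30.6 to 331 CPM in K2A libraries, with no count in WT libraries. The summed counts of 4 Y-linked genes were 0 in ΔPod libraries, 0 to 22 in K2A libraries and 3404 to 4148 in WT libraries, so genotype and sex cannot be told apart. The targeted gene itself, Ybx1, had a log2 fold change against WT of -0.58 (edgeR adjusted p = 0.465) in ΔPod and -0.51 (edgeR adjusted p = 0.725) in K2A.

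The mitochondrial genome is a small circle of DNA that is transcribed from both strands into long precursors. The tRNAs lie between the longer genes and mark where the precursor is cut into mRNAs, rRNAs and tRNAs. The heavy strand gives both rRNAs, most tRNAs and every mRNA except mt-Nd6, which comes from the light strand with the remaining tRNAs. The proteins are core subunits of the respiratory chain and ATP synthase, which the proximal tubule and thick ascending limb of the kidney use intensively to drive salt transport. Most mitochondrial mRNAs carry short poly(A) tails, and the rRNAs carry very short ones, so libraries made from polyadenylated RNA can hold both. The members are therefore given apart by class.

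A stretch of nuclear chromosome 1 repeats part of this genome, and this bears on which members can be counted. The annotation places 7 pseudogenes in a row at chr1:24611535-24616197 in mm10, on the minus strand. They match chrM:6381-11042, which runs from within mt-Co1 to within mt-Nd4. Over the 4149 annotated bases that could be aligned, copy and mitochondrial gene differed at 7. The whole of mt-Co2, mt-Atp8, mt-Atp6, mt-Co3, mt-Nd3 and mt-Nd4l lies inside the repeated stretch, as do mt-Ts1, mt-Td, mt-Tk, mt-Tg and mt-Tr, while mt-Co1 and mt-Nd4 lie in it in part. The first 60 bases of mt-Co2, which encodes a subunit of cytochrome c oxidase, and of its copy Gm28661 are shown because they are identical, as the copy is over all 681 of its bases.
mt-Co2, chrM:7013-7072 (+): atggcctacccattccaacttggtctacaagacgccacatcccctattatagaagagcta
Gm28661, chr1:24615506-24615565 (-): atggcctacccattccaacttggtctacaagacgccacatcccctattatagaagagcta
The first 60 bases of mt-Nd3, which encodes a complex I subunit, and of its copy Gm28438 are shown because they hold the single difference between these genes, T3C, counted from the first base of mt-Nd3 and set in capitals.
mt-Nd3, chrM:9459-9518 (+): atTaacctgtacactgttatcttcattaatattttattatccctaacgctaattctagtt
Gm28438, chr1:24613060-24613119 (-): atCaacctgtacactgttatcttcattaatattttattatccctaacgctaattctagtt
The end of the match in mt-Co1 is shown because it holds the other 6 differences, T1056A, C1057T, A1059G, A1060G, C1062A and A1066T, counted from the first base of mt-Co1 and set in capitals.
mt-Co1, chrM:6381-6440 (+): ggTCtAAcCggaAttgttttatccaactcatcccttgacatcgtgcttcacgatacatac
Gm29216, chr1:24616138-24616197 (-): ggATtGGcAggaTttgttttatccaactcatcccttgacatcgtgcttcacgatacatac
Counted over all windows of 50 bases, the share that also occurs exactly in an annotated nuclear transcript was 100% in mt-Co2, 99.9% in mt-Co3, 99.5% in mt-Atp6, 98.8% in mt-Nd4l and 98.0% in mt-Nd3. It was 62.2% in mt-Nd4, 51.1% in mt-Co1, 8.19% in mt-Nd2, 7.61% in mt-Nd5 and 1.04% in mt-Rnr2, and 0% in mt-Nd1, mt-Nd6, mt-Cytb, mt-Rnr1 and every tRNA. For mt-Atp8, mt-Ts1, mt-Td, mt-Tk, mt-Tg and mt-Tr, no nuclear transcript is annotated in their part of the repeated stretch, so their 0% does not show that they differ from chromosome 1 there. How the counting treated reads that match several places is not given in the sources used here.

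**Figure D1:**
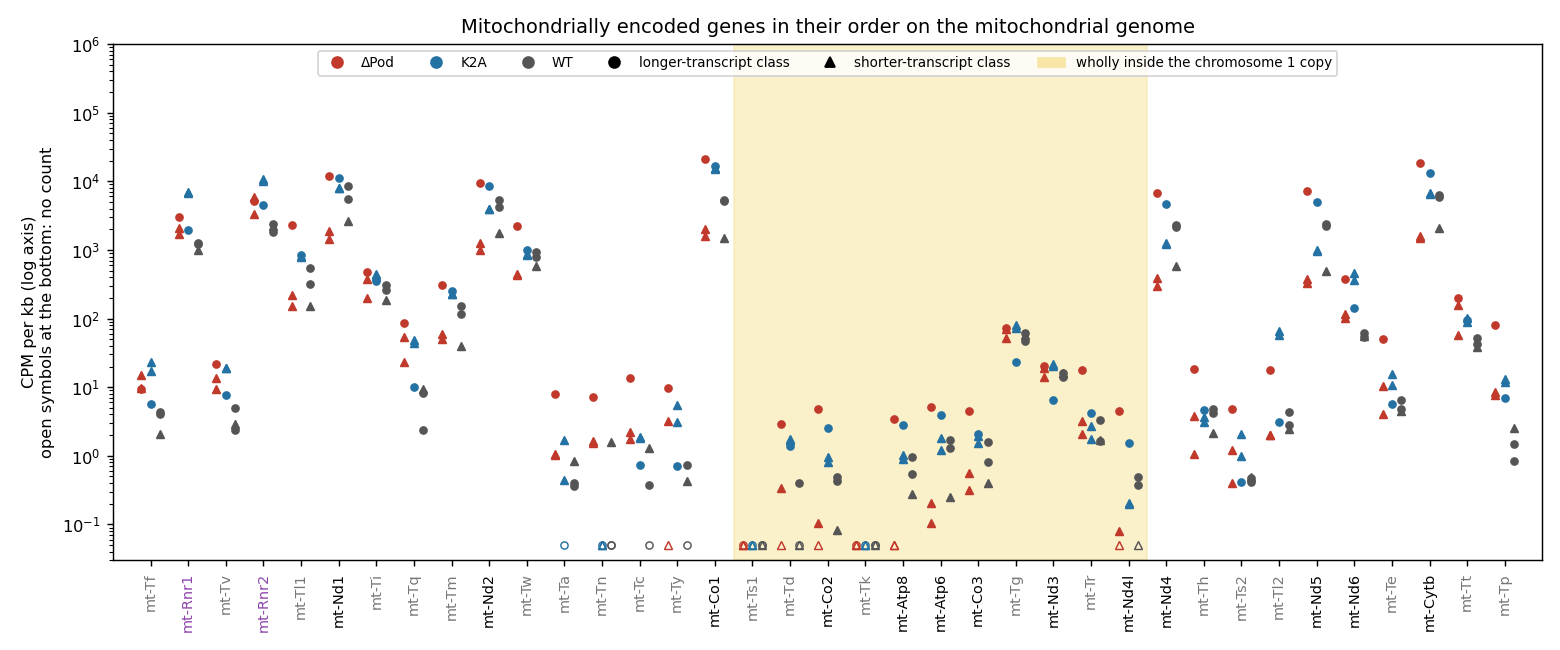
Level of each of the 37 mitochondrial genes in each library, in CPM per kb of gene on a log axis, with genes in their order on the mitochondrial genome and colour for ΔPod, K2A and WT. Open symbols at the bottom stand for libraries with no count, and the shaded genes lie wholly inside the stretch repeated on chromosome 1, where mean levels of mRNA genes were 0.828 to 16.5 CPM per kb.

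The members wholly inside the repeated stretch had few counts in every group. Over all 9 libraries the mean level of the 6 mRNA genes inside it was 0.828 to 16.5 CPM per kb. The 2 genes partly inside it, mt-Nd4 and mt-Co1, had 2173 and 9355 CPM per kb, and the 5 mRNA genes outside it had 192 to 6942 CPM per kb. The tRNA genes inside it had 0 to 59.8 CPM per kb and those outside it 1.26 to 901 CPM per kb. Summed over the 6 mRNA genes inside, counts were 192, 238 and 970 in ΔPod, 359, 337 and 385 in K2A and 312, 217 and 287 in WT. These sums made up 0.0123 to 0.0907% of a library's mitochondrial mRNA counts. The 7 chromosome 1 copies together held 48, 231 and 1074 counts in ΔPod, 910, 1061 and 659 in K2A and 180, 98 and 667 in WT, of which Gm28437, the copy of mt-Co3, held 4078 of its own over the 9 libraries. Neither the genes nor their copies therefore held a level like that of the neighbouring mitochondrial mRNAs. Low values of these genes are a property of the count tables, and whether the transcripts were scarce was not tested.

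None of the 4 tested mRNA genes inside the repeated stretch passed in the edgeR fit by group in any comparison. With the slope on transcript length as a covariate, mt-Co2 passed in K2A against WT (log2 fold change 3.15, SE 0.94, edgeR adjusted p = 0.0499, all genes 16.1%). With the transcript-length class as a term it did not pass (edgeR adjusted p = 0.0886). mt-Co2 had 2, 0 and 162 counts in ΔPod, 18, 22 and 73 in K2A and 12, 2 and 12 in WT. mt-Atp6, which encodes the proton channel subunit of ATP synthase, had 2, 6 and 173 counts in ΔPod, 40, 28 and 109 in K2A and 42, 6 and 36 in WT. ΔPod 3 was the highest library for both genes, and the groups overlapped except that every K2A library was above every WT library for mt-Co2. mt-Co3, another cytochrome c oxidase subunit, had 7, 19 and 176 counts in ΔPod, 49, 40 and 68 in K2A and 45, 11 and 26 in WT. mt-Nd3 was more even, with 181, 212 and 357 counts in ΔPod, 244, 238 and 92 in K2A and 205, 196 and 199 in WT. mt-Atp8, the small partner of mt-Atp6, had 86 counts over all libraries and mt-Nd4l, a complex I subunit, had 101. The log2 fold changes were 0.21 to 2.28 in ΔPod against WT and 0.05 to 2.10 in K2A against WT, with standard errors of 0.44 to 1.56, over mt-Nd3, mt-Atp6, mt-Co3 and mt-Co2.

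The low genes also share bases with their neighbours, which counting by gene can treat in more than 1 way. The reading frames of mt-Atp8 and mt-Atp6 overlap by 43 bases, set in capitals below with their surroundings because they show how the 2 frames share sequence.
mt-Atp8/mt-Atp6, chrM:7907-7989 (+): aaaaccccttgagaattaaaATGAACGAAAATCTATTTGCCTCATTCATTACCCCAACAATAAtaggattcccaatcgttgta
The frames of mt-Nd4l and mt-Nd4 overlap by 7 bases, which are in capitals here.
mt-Nd4l/mt-Nd4, chrM:10147-10193 (+): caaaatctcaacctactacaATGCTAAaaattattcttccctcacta
In each pair the mRNA is known to carry both frames, so that unequal counts of the partners, such as 101 for mt-Nd4l against 1133210 for mt-Nd4, compare 2 parts of a shared molecule. The strand setting of the counting is not given in the sources used here either, so counts of genes that overlap on opposite strands are uncertain as well.

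Mitochondrial mRNA took a larger share of the library in K2A than in WT, whereas in ΔPod the share differed widely between libraries. It was 0.639, 1.02 and 10.4% of all counts in ΔPod, 4.94, 4.68 and 7.87% in K2A and 3.56, 1.05 and 3.07% in WT. Every K2A library was above every WT library, while 2 ΔPod libraries lay below all WT libraries and ΔPod 3 above them. The means were 4.01 ± 5.51% in ΔPod, 5.83 ± 1.77% in K2A and 2.56 ± 1.33% in WT (SD, n = 3 each). An exact two-sided permutation test gave p = 1 for ΔPod against WT, p = 0.1 for K2A against WT and p = 0.6 for K2A against ΔPod, and 0.1 is the smallest p that 3 libraries against 3 allow. Adjusted over the 6 tests of mRNA and rRNA shares, these were 1, 0.2 and 0.72. Without ΔPod 3 the difference between ΔPod and WT was -1.73 percentage points in place of 1.45. Within the longer-transcript class the share was 10.4% in ΔPod 3 and 7.87% in K2A 3, against 3.56 and 3.07% in WT 1 and WT 3. Within the shorter-transcript class it was 0.639 and 1.02% in ΔPod 1 and ΔPod 2 and 4.94 and 4.68% in K2A 1 and K2A 2, against 1.05% in WT 2. In whole kidney, more cells rich in mitochondria and more mitochondrial RNA per cell cannot be told apart.

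**Figure D2:**
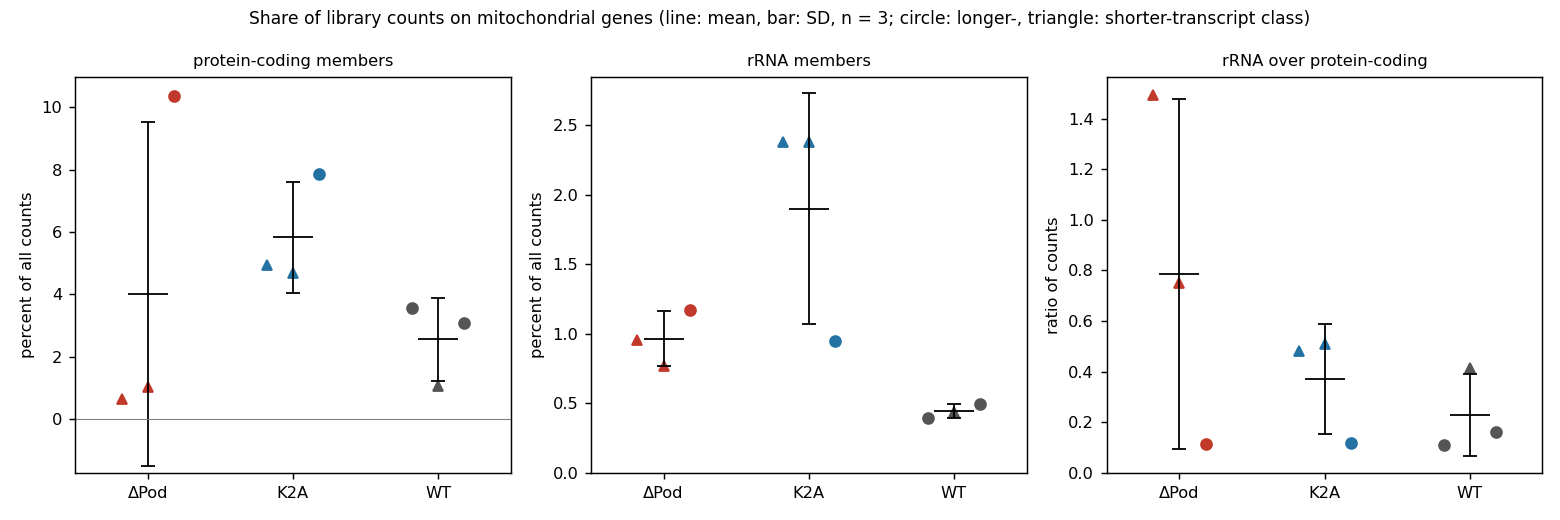
Share of all counts on mitochondrial mRNA genes and on mitochondrial rRNA genes, and the ratio of rRNA to mRNA counts, in each of the 3 libraries of ΔPod, K2A and WT. Horizontal lines are means and bars are SDs. The rRNA share of each mutant library lies above 0.494%, the highest WT value, and the mRNA share of ΔPod spans 0.639 to 10.4%.

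Markers of other tissues differed between libraries. The 5 urothelium markers summed to 40.5, 8.56 and 0.484 CPM in ΔPod, 41.5, 53.5 and 5.64 CPM in K2A, against 8.21, 5.04 and 4.55 CPM in WT. The summed level of 4 fat markers was 106, 5.84 and 0.363 CPM in ΔPod, 185, 494 and 2.81 CPM in K2A, against 0.305, 0.229 and 0.346 CPM in WT. For the brown fat markers Ucp1 and Cidea it was 34.2, 0.328 and 0.403 CPM in ΔPod, 28.5, 148 and 0.0484 CPM in K2A, against 0.0573 to 0.173 CPM in WT. The summed proximal tubule level was 2182, 3365 and 9754 CPM in ΔPod, 3034, 3203 and 6005 CPM in K2A, against 12970, 6368 and 12720 CPM in WT. Much of this sum was a single gene, Slc34a1, with 8724 CPM in WT 1. Another of these markers, Slc5a12, overlapped between all groups, with 168, 195 and 364 CPM in ΔPod, 139, 179 and 190 CPM in K2A, against 153, 115 and 201 CPM in WT. The part of tubule, fat or urothelium content in the mitochondrial values was not tested beyond this. Genes for cytosolic ribosomal proteins, which are short, took 7.27, 3.90 and 1.04% of counts in ΔPod, 3.49, 3.55 and 0.926% in K2A and 1.07, 2.21 and 1.01% in WT.

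ΔPod was compared with WT to see how deleting Ybx1 in podocytes affects the kidney. Both rRNAs, mt-Nd6 and several tRNAs were higher in each ΔPod library than in each WT library, and the abundant mRNAs were high in ΔPod 3 and low in the other 2 libraries. In edgeR's quasi-likelihood test, adjusted over all genes at a false discovery rate of 0.05, 0 of the 26 tested members passed, against 0.985% of all tested genes. At an unadjusted p under 0.05 there were 8 members (all tested genes 13.8%), namely 1 mRNA, 1 rRNA and 6 tRNAs. The log2 fold change was above 0 for 25 of 26 members, against 53.4% of all genes, and its median was 0.64 over 11 mRNA genes, 1.07 over 2 rRNA genes and 1.41 over 13 tRNA genes, against 0.08 over all tested genes. Without ΔPod 3, 9 of the 11 mRNA genes were below 0, with a median of -1.78, and both rRNA genes were above 0, with a median of 0.88. Of the 10 tRNA genes described singly below, 6 were then above 0 and 4 below, with a median of 0.14. Every ΔPod library was above every WT library for 8 members, which were mt-Nd6, both rRNAs and 5 tRNAs (all genes 8.73%). The reverse held for 0 members (all genes 9.47%).

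K2A was compared with WT to see how a Ybx1 that podocytes cannot release affects the kidney. Both rRNAs, mt-Co1, mt-Cytb, mt-Nd6 and several tRNAs were higher in each K2A library than in each WT library. Again 0 of 26 members passed in edgeR (all genes 0.847%), and 9 had an unadjusted p under 0.05 (all genes 10.6%), namely mt-Nd6, both rRNAs and 6 tRNAs. The log2 fold change was above 0 for 26 of 26 members, against 55.6% of all genes. Its median was 0.89 over mRNA genes, 2.09 over rRNA genes and 1.17 over tRNA genes, against 0.09 over all tested genes. Every K2A library was above every WT library for 14 members, which were 4 mRNA, 2 rRNA and 8 tRNA genes (all genes 11.0%), and the reverse held for 0 (all genes 9.18%). Both comparisons use the same WT libraries. DESeq2 called 3 members in ΔPod (mt-Tv, mt-Tq and mt-Tt, all genes 5.57%) and 6 in K2A (mt-Nd6, both rRNAs, mt-Tf, mt-Tv and mt-Tl2, all genes 5.07%). It gave no adjusted p for mt-Co1, mt-Co2, mt-Nd4, mt-Nd5, mt-Cytb and mt-Tp in any comparison, so it could not call them. With the transcript-length class of each library as a term, edgeR called 2 members in ΔPod (mt-Tt and mt-Tp, all genes 3.96%) and 4 in K2A (mt-Rnr2, mt-Tm, mt-Co1 and mt-Nd6, all genes 4.09%). With the slope itself as a covariate it called 5 in ΔPod (mt-Nd6, mt-Tv, mt-Tq, mt-Tt and mt-Tp, all genes 14.7%) and 11 in K2A (mt-Rnr1, mt-Rnr2, mt-Nd2, mt-Co1, mt-Co2, mt-Nd4, mt-Nd6, mt-Cytb, mt-Tf, mt-Tv and mt-Tm, all genes 16.1%). Each of these calls under DESeq2 or a length term was of a higher level in the mutant group.

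**Figure D3:**
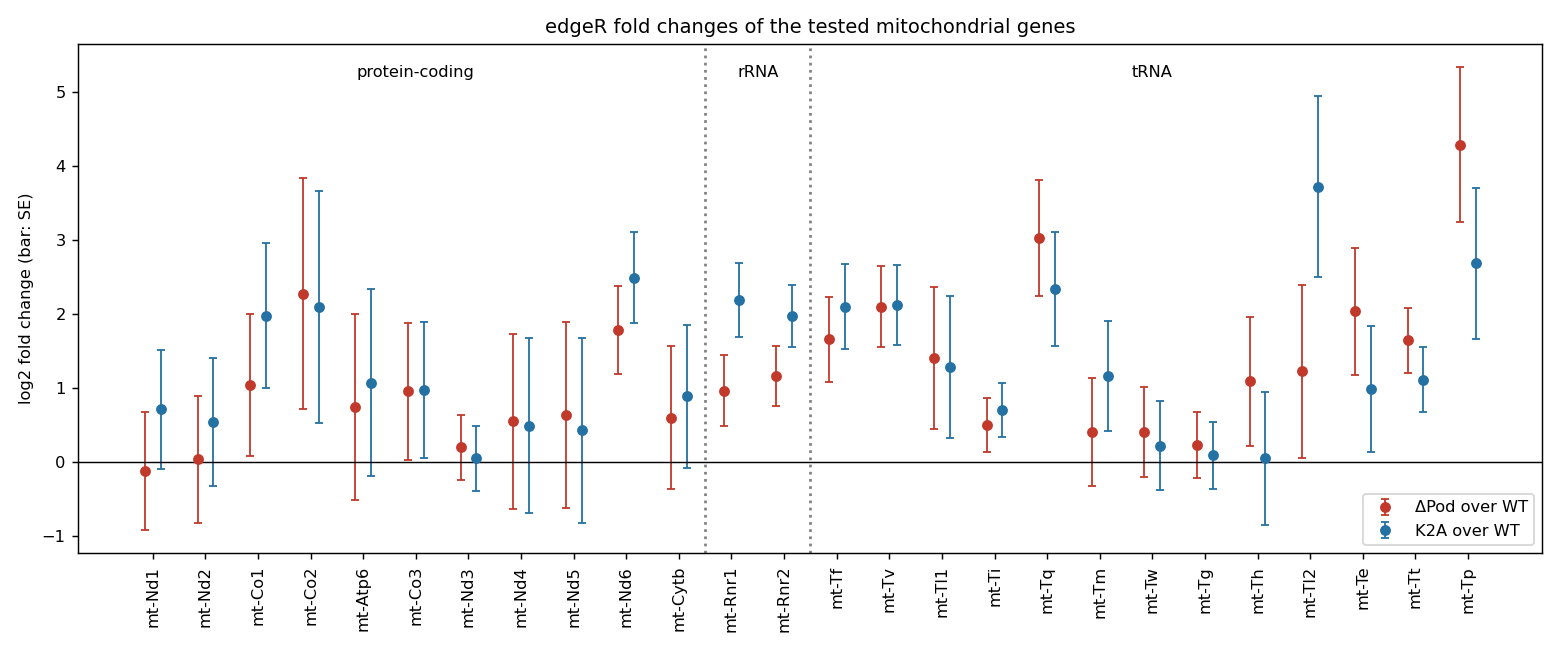
Log2 fold change of the 26 tested mitochondrial genes in ΔPod over WT and K2A over WT, from edgeR, with standard errors as bars and the classes divided by dotted lines. None passed the test. The values run from -0.11 (mt-Nd1) to 4.29 (mt-Tp) in ΔPod and from 0.05 (mt-Th) to 3.72 (mt-Tl2) in K2A.

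For mt-Nd1, mt-Nd2, mt-Nd4 and mt-Nd5, mRNAs of complex I, the first and largest complex of the respiratory chain, ΔPod 3 and K2A 3 held the highest levels. mt-Nd1, a membrane subunit of this complex, had 1361, 1792 and 11500 CPM in ΔPod, 7635, 7714 and 10688 CPM in K2A, against 8142, 2504 and 5202 CPM in WT. The groups overlapped, and its log2 fold change was -0.11 (SE 0.80, edgeR adjusted p = 0.946) in ΔPod and 0.72 (SE 0.80, edgeR adjusted p = 0.798) in K2A. mt-Nd2, another membrane subunit, had 1030, 1292 and 9699 CPM in ΔPod, 4069, 4108 and 8857 CPM in K2A, against 5509, 1838 and 4337 CPM in WT. ΔPod 1 and ΔPod 2 were again the lowest libraries and ΔPod 3 the highest, and the log2 fold change was 0.04 (SE 0.86, edgeR adjusted p = 0.981) in ΔPod and 0.54 (SE 0.86, edgeR adjusted p = 0.841) in K2A. mt-Nd4, a proton-pumping subunit, had 405, 539 and 9267 CPM in ΔPod, 1674, 1709 and 6412 CPM in K2A, against 3142, 800 and 2997 CPM in WT. mt-Nd5, the other large proton-pumping subunit, had 602, 680 and 13325 CPM in ΔPod, 1763, 1818 and 9056 CPM in K2A, against 4403, 887 and 4064 CPM in WT. For both genes the 4 libraries of the longer-transcript class were above the 5 of the shorter-transcript class. Their log2 fold changes were 0.56 and 0.64 in ΔPod and 0.50 and 0.43 in K2A, with standard errors of 1.18 and 1.25. Without ΔPod 3 the log2 fold changes of mt-Nd1, mt-Nd2, mt-Nd4 and mt-Nd5 in ΔPod were -1.78, -1.78, -2.33 and -2.32, so the mean of ΔPod rests on that library. Without K2A 3 those of mt-Nd4 and mt-Nd5 in K2A were -0.50 and -0.85.

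The mRNAs of cytochrome b and of the largest subunit of cytochrome c oxidase were higher in each K2A library than in each WT library. mt-Cytb, the mitochondrially encoded subunit of complex III, had 1709, 1819 and 21285 CPM in ΔPod, 7703, 7515 and 15123 CPM in K2A, against 7268, 2353 and 6696 CPM in WT. ΔPod 1 and ΔPod 2 lay below all WT libraries and ΔPod 3 above all. Its log2 fold change was 0.60 (SE 0.96, edgeR adjusted p = 0.744) in ΔPod and 0.89 (SE 0.97, edgeR adjusted p = 0.792) in K2A. mt-Co1, the catalytic subunit of complex IV, had 2491, 3078 and 32678 CPM in ΔPod, 23984, 23623 and 25676 CPM in K2A, against 8292, 2318 and 7938 CPM in WT. The 3 K2A libraries were close together across both transcript-length classes and above all WT libraries, while ΔPod 3 lay above and the other ΔPod libraries below WT 1 and WT 3. The mt-Co1 log2 fold change was 1.04 (SE 0.95, edgeR adjusted p = 0.582) in ΔPod and 1.98 (SE 0.98, edgeR adjusted p = 0.547) in K2A. With the transcript-length class as a term it was 3.10 in K2A and passed.

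**Figure D4:**
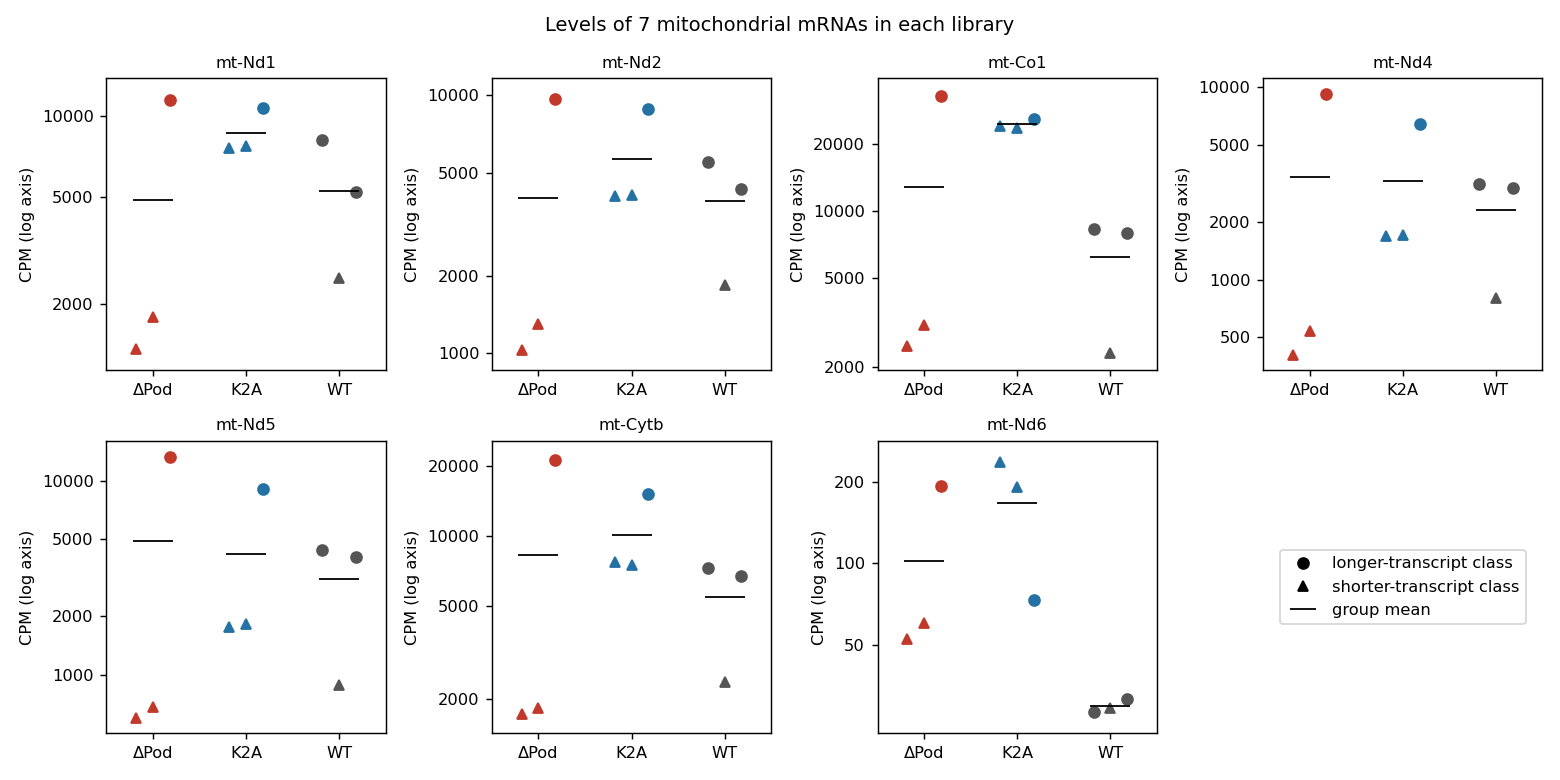
Level of 7 mitochondrial mRNAs in each library, in CPM on a log axis, for ΔPod, K2A and WT. Circles are libraries of the longer-transcript class, triangles those of the shorter-transcript class, and lines are group means. For mt-Nd4 and mt-Nd5 the circles lie above the triangles over all groups, whereas mt-Nd6 in WT lies between 28.2 and 31.5 CPM in both classes.

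Ratios within a library do not depend on its scaling, and the ratio of mt-Co1 to mt-Nd1 was higher in every mutant library than in every WT library. The ratios were chosen after the values were seen and are given as a description. mt-Co1 had 1.83, 1.72 and 2.84 counts for each count of mt-Nd1 in ΔPod, 3.14, 3.06 and 2.40 in K2A and 1.02, 0.926 and 1.53 in WT. This held in both transcript-length classes. Its share of mitochondrial mRNA counts was 32.5, 33.2 and 33.4% in ΔPod, 50.9, 50.6 and 33.8% in K2A and 22.5, 21.6 and 25.4% in WT. In CPM per kb of the whole gene, mt-Co1 was above mt-Nd1 in each mutant library and below it in each WT library. Which gene is higher depends on this length, since it is not known whether reads matching nuclear transcripts were counted. The group means of mt-Co1 were 8252 ± 11172 CPM per kb in ΔPod, 15811 ± 709 CPM per kb in K2A and 4002 ± 2169 CPM per kb in WT (SD, n = 3 each). Of the 50-base windows of mt-Co1, 51.1% also occur in nuclear transcripts, against 0% for mt-Nd1. The pseudogene Gm13340 on chromosome 2, which holds 411 of the mt-Co1 windows, had at most 426 counts in a library.

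The ratio of mt-Nd5 to mt-Nd1 went with the transcript-length class instead. It was 0.443, 0.380 and 1.16 in ΔPod, 0.231, 0.236 and 0.847 in K2A and 0.541, 0.354 and 0.781 in WT. The 4 libraries of the longer-transcript class were above the other 5, and the groups overlapped. mt-Nd5 is the longest mitochondrial mRNA gene at 1824 bases, and mt-Nd1 spans 957 bases.

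**Figure D5:**
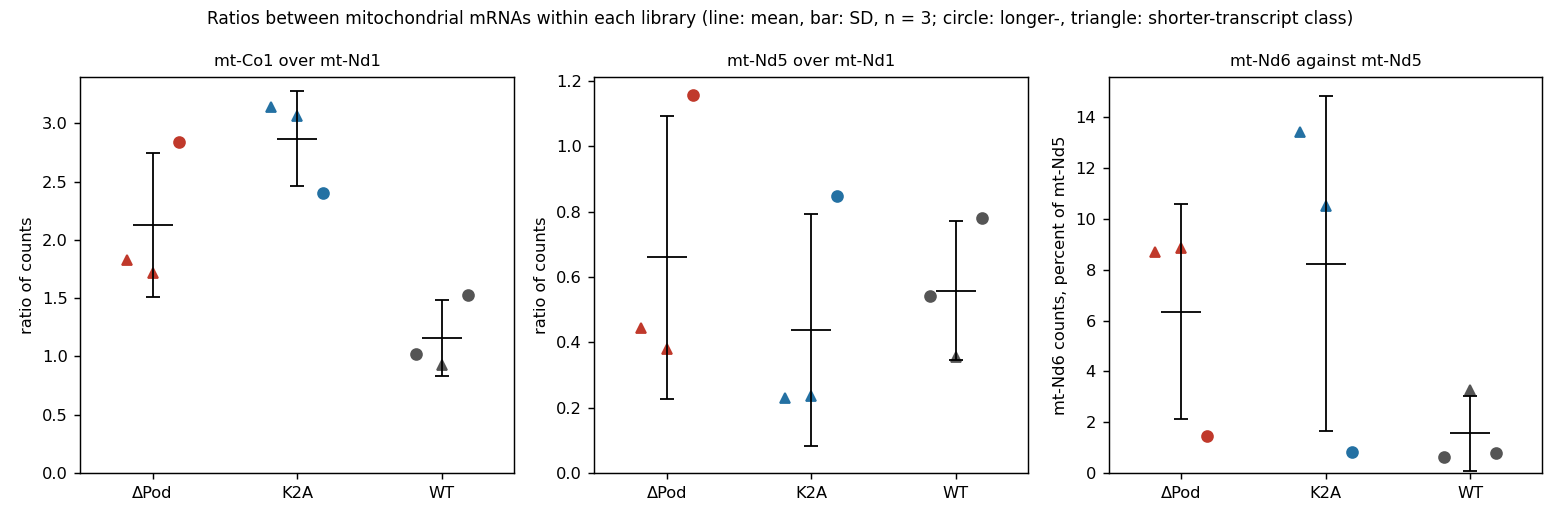
Ratio of mt-Co1 to mt-Nd1 counts, ratio of mt-Nd5 to mt-Nd1 counts, and mt-Nd6 counts as a percent of mt-Nd5 counts in each library of ΔPod, K2A and WT, with means as lines and SDs as bars. The first ratio is above 1.53, the highest WT value, in each mutant library, and the other 2 divide circles (longer-transcript class) from triangles (shorter-transcript class).

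mt-Nd6, a complex I subunit and the only light-strand mRNA, was higher in each mutant library than in any WT library. It had 52.4, 60.3 and 194 CPM in ΔPod, 236, 191 and 73.1 CPM in K2A, against 28.2, 29.0 and 31.5 CPM in WT. The WT libraries were close together across both transcript-length classes, and the mutant libraries were not. Its log2 fold change was 1.79 (SE 0.60, edgeR adjusted p = 0.275) in ΔPod and 2.50 (SE 0.61, edgeR adjusted p = 0.137) in K2A, and neither passed. DESeq2 and edgeR with the transcript-length class as a term called it in K2A, and with the length slope as a covariate edgeR called it in both comparisons. mt-Nd6 overlaps the heavy-strand gene mt-Nd5 by 14 bases, in capitals below because reads there can come from either strand.
mt-Nd5, chrM:13532-13565 (+): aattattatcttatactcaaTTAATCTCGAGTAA
Relative to mt-Nd5, mt-Nd6 had 8.71, 8.86 and 1.45% as many counts in ΔPod, 13.4, 10.5 and 0.807% in K2A and 0.641, 3.27 and 0.776% in WT. Within the longer-transcript class this was 1.45% in ΔPod 3 and 0.807% in K2A 3, against 0.641 and 0.776% in WT 1 and WT 3. Without strand in the counting, reads of the heavy-strand precursor across mt-Nd6 and reads of mt-Nd6 itself cannot be told apart.

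Both rRNAs of the mitochondrial ribosome were at higher levels in every mutant library than in every WT library. mt-Rnr1, the rRNA of the small subunit, had 2004, 1634 and 2838 CPM in ΔPod, 6504, 6720 and 1882 CPM in K2A, against 1154, 941 and 1210 CPM in WT. mt-Rnr2, the rRNA of the large subunit, had 9427, 5334 and 8214 CPM in ΔPod, 16186, 16988 and 7230.5 CPM in K2A, against 2906, 3514 and 3822 CPM in WT. K2A 1 and K2A 2 were the highest libraries for both, and K2A 3 was within the range of ΔPod. The log2 fold change of mt-Rnr1 was 0.97 (SE 0.48, edgeR adjusted p = 0.390) in ΔPod and 2.19 (SE 0.50, edgeR adjusted p = 0.108) in K2A. That of mt-Rnr2 was 1.17 (SE 0.41, edgeR adjusted p = 0.297) in ΔPod and 1.98 (SE 0.42, edgeR adjusted p = 0.0831) in K2A, the smallest adjusted p of any member in that comparison. Without K2A 3, and in DESeq2 with all libraries, both rRNAs passed in K2A. In ΔPod neither passed under any alternative run.

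As a share of all counts, rRNA took 0.954, 0.771 and 1.17% in ΔPod, 2.38, 2.38 and 0.944% in K2A and 0.393, 0.438 and 0.494% in WT. The means were 0.965 ± 0.200% in ΔPod, 1.90 ± 0.83% in K2A and 0.442 ± 0.051% in WT (SD, n = 3 each). An exact two-sided permutation test gave p = 0.1 for each genotype against WT (0.2 adjusted over 6 tests) and p = 0.3 for K2A against ΔPod (0.45 adjusted), and 0.1 is the smallest p possible. Relative to its mean, the rRNA share varied less than the mRNA share within ΔPod and WT. For each count of mitochondrial mRNA there were 1.49, 0.752 and 0.113 counts of rRNA in ΔPod, 0.482, 0.508 and 0.120 in K2A and 0.110, 0.415 and 0.161 in WT. This ratio divided the libraries by transcript-length class, with 0.110 to 0.161 in the longer-transcript class and 0.415 to 1.49 in the shorter-transcript class. Counts of mt-Rnr2 were 4.70, 3.27 and 2.89 times those of mt-Rnr1 in ΔPod, 2.49, 2.53 and 3.84 times in K2A and 2.52, 3.73 and 3.16 times in WT, and the groups overlapped.

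Mitochondrial tRNA genes, the shortest members, held 0.00736 to 0.0440% of all counts. Reads assigned to them can come from precursors or from neighbouring genes, so these counts are not a measure of mature tRNA. The tRNA genes with the highest levels lay beside abundant RNAs, but so did some with low levels. Among these were mt-Tv between the rRNA genes (mean 0.777 CPM) and mt-Tf before mt-Rnr1 (mean 0.685 CPM). mt-Tw, the tryptophan tRNA next to mt-Nd2, had 30.2, 28.9 and 147 CPM in ΔPod, 55.8 to 67.9 CPM in K2A and 63.4, 39.3 and 52.6 CPM in WT. mt-Tl1, a leucine tRNA between mt-Rnr2 and mt-Nd1, had 16.4, 11.6 and 172 CPM in ΔPod, 59.1, 60.8 and 63.8 CPM in K2A, against 40.2, 11.3 and 23.6 CPM in WT. For both, ΔPod 3 was far above the other ΔPod libraries, as for the mRNAs beside them, and mt-Tl1 was higher in each K2A library than in each WT library. mt-Ti, the isoleucine tRNA after mt-Nd1, had 26.2, 13.7 and 33.2 CPM in ΔPod, 28.8, 31.0 and 24.6 CPM in K2A, against 21.0, 12.8 and 17.8 CPM in WT. mt-Tm, the methionine tRNA before mt-Nd2, had 4.05, 3.45 and 20.9 CPM in ΔPod, 15.5, 15.5 and 17.3 CPM in K2A, against 10.6, 2.75 and 8.01 CPM in WT. For these 2 genes as well, K2A libraries lay above WT libraries without overlap, and ΔPod libraries overlapped with WT.

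Some tRNAs of lower level separated both mutant groups from WT. mt-Tt, the threonine tRNA after mt-Cytb, had 10.6, 3.82 and 13.4 CPM in ΔPod, 6.88, 5.99 and 6.39 CPM in K2A, against 3.49, 2.55 and 2.82 CPM in WT. Its log2 fold change was 1.65 (SE 0.44, edgeR adjusted p = 0.173) in ΔPod and 1.12 (SE 0.44, edgeR adjusted p = 0.382) in K2A. mt-Tq, the glutamine tRNA of the light strand, had 3.80, 1.66 and 6.17 CPM in ΔPod, 3.13, 3.41 and 0.726 CPM in K2A, against 0.166, 0.659 and 0.593 CPM in WT. Its log2 fold change was 3.03 (SE 0.78, edgeR adjusted p = 0.154) in ΔPod and 2.34 (SE 0.77, edgeR adjusted p = 0.276) in K2A. mt-Tl2, the other leucine tRNA, had 4, 6 and 63 counts in ΔPod, 152, 139 and 9 counts in K2A and 11, 6 and 8 counts in WT. It thus had high counts in K2A 1 and K2A 2 but not in K2A 3, with a log2 fold change of 3.72 (SE 1.22, edgeR adjusted p = 0.277) in K2A against WT. mt-Tg, the glycine tRNA inside the stretch repeated on chromosome 1, had 3.56 to 4.96 CPM in ΔPod, 5.55, 4.92 and 1.57 CPM in K2A, against 3.19 to 4.16 CPM in WT, with overlap between all groups.

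A further 2 tRNA genes were picked after their values were seen. mt-Tp, the proline tRNA of the light strand, had 16, 22 and 268 counts in ΔPod, 26, 30 and 19 counts in K2A and 2, 6 and 4 counts in WT. Its log2 fold change was 4.29 (SE 1.05, edgeR adjusted p = 0.126) in ΔPod, the largest of any member in that comparison, and 2.69 (SE 1.02, edgeR adjusted p = 0.365) in K2A. mt-Tv, the valine tRNA between the rRNA genes, had 26, 28 and 75 counts in ΔPod, 43, 44 and 22 counts in K2A and 6, 7 and 14 counts in WT. Its log2 fold change was 2.11 (SE 0.54, edgeR adjusted p = 0.151) in ΔPod and 2.13 (SE 0.54, edgeR adjusted p = 0.156) in K2A. Both were higher in each mutant library than in each WT library. Summed over the tRNA genes of the light strand, counts were 156, 118 and 876 in ΔPod, 168, 196 and 69 in K2A and 21, 50 and 50 in WT. The remaining tested tRNA genes, mt-Tf, mt-Th and mt-Te, had mean levels of 0.343 to 0.867 CPM.

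The 9 tRNA genes below the filter held few counts, and 2 of them held none. mt-Ta, mt-Tc, mt-Tn, mt-Ty, mt-Td, mt-Tr and mt-Ts2 had 24 to 112 counts each over all libraries. mt-Tn had 3, 5 and 25 counts in ΔPod, 0 in each K2A library and 0, 4 and 0 in WT. mt-Ts1, which overlaps the end of mt-Co1 by 3 bases on the other strand, and mt-Tk, the lysine tRNA between mt-Co2 and mt-Atp8, had 0 counts in all 9 libraries. A count of 0 allows a level of up to 0.00886 CPM over all libraries together (3 counts), for counting error only. The gene of mt-Tk, inside the repeated stretch, is shown as an example of a member that no read was assigned to.
mt-Tk, chrM:7700-7764 (+): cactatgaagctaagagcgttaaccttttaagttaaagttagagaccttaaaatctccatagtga
Its length of 65 bases, like that of the other tRNA genes (59 to 75 bases), leaves 16 windows of 50 bases in which a read could lie wholly inside it.

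K2A and ΔPod were compared with each other to set the secretion mutant against the deletion. DESeq2 called 0 members (all genes 0.106%), and it gave no adjusted p for mt-Co1, mt-Co2, mt-Nd4, mt-Nd5, mt-Cytb and mt-Tp. In edgeR 0 of 26 members passed, against 0% of all tested genes, and 1 had an unadjusted p under 0.05 (all genes 2.01%). The member under 0.05 was mt-Rnr1, with a log2 fold change of 1.22 (SE 0.49, edgeR adjusted p = 1). No member separated the groups without overlap, against 3.51% of genes higher in K2A and 1.61% lower. The log2 fold change was above 0 for 14 of 26 members, with a median of 0.29 over mRNA genes, 1.02 over rRNA genes and -0.14 over tRNA genes, against -0.01 over all genes. ΔPod 3 was far above the other ΔPod libraries for each abundant mRNA. The difference in mRNA share between K2A and ΔPod was 1.81 percentage points, and it ran from 0.126 without ΔPod 1 to 4.99 without ΔPod 3 when each library was left out.

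Nuclear genes that serve the mitochondrial genome were followed as lists, and 0 members of any list passed in the edgeR fit by group or in DESeq2 in any comparison. Over all genes, edgeR called 0.985% in ΔPod against WT, 0.847% in K2A against WT and 0% in K2A against ΔPod. DESeq2 called 5.57, 5.07 and 0.106% in the same order. With the slope on transcript length as a covariate, edgeR called 14.7% of all genes in ΔPod against WT. From the lists it called 7 of 78 mitochondrial ribosomal proteins, 3 of 96 cytosolic ribosomal proteins, 2 of 19 respiratory complex partners and 2 of 17 assembly factors. In K2A against WT it called 16.1% of all genes. Among these were 10 of 78 mitochondrial ribosomal proteins, 2 of 96 cytosolic ribosomal proteins and 2 of 17 assembly factors. It also called 1 gene each of the complex partners, the regulators of biogenesis and the RNA processing list. The list of 14 genes of mitochondrial DNA transcription and replication had a median log2 fold change of 0.18 in ΔPod and 0.13 in K2A. Tfam, which packages mitochondrial DNA and starts its transcription, had 106, 72.5 and 41.4 CPM in ΔPod, 72.1, 77.7 and 47.9 CPM in K2A, against 55.4, 73.6 and 52.6 CPM in WT. Polrmt, the mitochondrial RNA polymerase, had 5.03, 16.0 and 46.5 CPM in ΔPod, 19.7, 18.8 and 47.5 CPM in K2A, against 44.5, 29.1 and 45.7 CPM in WT. Tfam was higher in the shorter-transcript class and Polrmt in the longer-transcript class within each group. The 23 tested genes of mitochondrial RNA processing and stability had a median of -0.09 in ΔPod and -0.00 in K2A. Lrpprc, which protects mitochondrial mRNAs and promotes their polyadenylation, had 18.1, 33.2 and 109 CPM in ΔPod, 16.1, 19.9 and 130 CPM in K2A, against 122, 50.2 and 116 CPM in WT. Its small partner Slirp ran the other way, with 257, 112 and 31.2 CPM in ΔPod, 114, 117 and 33.4 CPM in K2A, against 43.6, 88.6 and 43.8 CPM in WT. These partners thus differed in opposite directions between the length classes, and neither passed between groups in the fit by group.

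The 8 regulators of mitochondrial biogenesis had a median log2 fold change of -0.30 in ΔPod and -0.15 in K2A. Ppargc1a, a coactivator of mitochondrial gene programmes, had 25.6, 30.9 and 85.4 CPM in ΔPod, 28.1, 24.8 and 104 CPM in K2A, against 58.3, 32.4 and 69.6 CPM in WT. Its relative Ppargc1b had 0.109, 1.66 and 8.16 CPM in ΔPod, 1.27, 0.978 and 11.2 CPM in K2A, against 7.35, 1.95 and 4.84 CPM in WT. Both were higher in the longer-transcript class. The 19 tested nuclear partners in the respiratory complexes had a median of 0.25 in ΔPod and 0.20 in K2A. Ndufs1, a core subunit of complex I, had 154, 215 and 305 CPM in ΔPod, 184, 199 and 277 CPM in K2A, against 326, 256 and 353 CPM in WT. Ndufs1 too was higher in the longer-transcript class, mutant and WT libraries overlapped, and it had a log2 fold change against WT of -0.47 in ΔPod and -0.50 in K2A.

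Assembly and insertion factors, 17 genes, had a median log2 fold change of -0.14 in ΔPod and -0.12 in K2A. Oxa1l, which inserts newly made mitochondrial proteins into the inner membrane, had 26.4, 43.4 and 71.9 CPM in ΔPod, 41.5, 44.7 and 70.3 CPM in K2A, against 81.4, 63.6 and 76.5 CPM in WT. Cox10, which makes the heme of cytochrome c oxidase, had 9.26, 14.2 and 26.8 CPM in ΔPod, 16.5, 19.4 and 25.3 CPM in K2A, against 28.8, 23.2 and 27.5 CPM in WT. Oxa1l and Cox10 were likewise higher in each library of the longer-transcript class than in any of the shorter-transcript class. The 78 proteins of the mitochondrial ribosome, which holds both rRNAs, had a median of 0.74 in ΔPod and 0.36 in K2A, with 65 of 78 above 0 in each. The 96 tested cytosolic ribosomal proteins had medians of 1.32 and 0.74. Both ribosomal lists were higher in the shorter-transcript class within each group, and the part of that class in their medians was not tested.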

How the data were processed

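Polyadenylated RNA of whole kidney was purified on oligo-dT beads and made into libraries with the ScriptSeq v2 kit, per the labels' protocols. The authors deposited whole-number read counts by gene, in 1 table of ΔPod with WT and 1 of K2A with WT. Build mm10 and the tools STAR 2.7.3a, featureCounts 2.0.1, DESeq2 1.30.0, Trim Galore 0.6.3, FastQC 0.11.9 and MultiQC 1.10.1 are named in the submitters' processing notes. Strand and multi-mapping settings are not given in the sources used here. Of 52163 shared symbols, 3 with differing WT counts were left out.

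Counts of all 9 libraries entered a single fit by group in R 4.3.3 (edgeR 4.0.16, limma 3.58.1, filterByExpr, TMM, quasi-likelihood test, Benjamini-Hochberg over 18067 genes). CPM are counts over the TMM-scaled library size, and CPM per kb divides by gene length. Fold changes are log2. Genes and transcripts came from GENCODE vM21, and copies were aligned with Biopython 1.88. The length class is the sign of a library's slope of centred log2 CPM (prior count 2) on transcript length, over 17599 genes. All protein-coding and rRNA members were named, with the 8 tested tRNA genes of highest mean CPM. Where no member of another list passed, its first 2 genes were named, except that some genes are not reported here. The mt- members, lists and alternatives were chosen with earlier results of these data known. Alternatives were RLE factors, library size alone, scaling without mt- rows, DESeq2 1.42.0, no filter, only the 6 libraries compared, a replicate block, the length class or slope as a term, and leaving out each library. The edgeR steps were tested on simulated data with a single fixed spread for all genes. That spread was not taken from these libraries, so the test does not show how often changes are missed here. For K2A against ΔPod, same-numbered libraries deviated together (correlations 0.76, 0.403 and 0.85), and 0 members passed with or without the block.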

Additional observations from a re-analysis of the deposited data

How the results depend on the processing

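With RLE factors, library size alone, scaling without mt- rows, no filter or only the 6 libraries compared, 0 members passed in any comparison. The number that passed in ΔPod against WT was 3 with DESeq2 (all genes 5.57%), 2 with the length class term (3.96%) and 5 with the length slope covariate (14.7%). DESeq2 gave no adjusted p for some members, as named above. In K2A against WT the number was 6 (all genes 5.07%), 4 (4.09%) and 11 (16.1%) with the same alternatives. When each library was left out it was 0 to 2, the 2 being mt-Rnr1 and mt-Rnr2 without K2A 3 (all genes 0.936%). The replicate block gave 0 members in each comparison, while over all genes it called 270 for ΔPod, 232 for K2A and 0 for K2A against ΔPod. Same-numbered ΔPod and WT libraries (correlations -0.62, 0.441 and 0.715) and K2A and WT libraries (-0.545, 0.755 and 0.706) share a number alone. With only the 6 libraries compared, 54 genes passed in ΔPod in place of 178. In ΔPod the sign of the log2 fold change turned with the replicate block for mt-Atp6 (-0.12), mt-Cytb (-0.16), mt-Nd2 (-0.55), mt-Nd4 (-0.58) and mt-Nd5 (-0.54), and with the length class term (0.016) and length slope covariate (0.15) for mt-Nd1. In K2A it turned for mt-Nd3 with DESeq2 (-0.020), RLE factors (-0.019), the class term (-0.15), the slope covariate (-0.18), no filter (-0.014), the replicate block (-0.025) and scaling without mt- rows (-0.0037), and for mt-Tg with the class term (-0.13) and slope covariate (-0.16). Leaving out each library in turn, log2 fold changes in ΔPod ran from -1.78 to 0.32 for mt-Nd1, -1.78 to 0.48 for mt-Nd2, -1.19 to 1.52 for mt-Co1, -2.84 to 2.82 for mt-Co2, -2.75 to 1.28 for mt-Atp6, -1.08 to 1.53 for mt-Co3, -2.33 to 1.07 for mt-Nd4, -2.32 to 1.16 for mt-Nd5, -1.66 to 1.07 for mt-Cytb, -0.85 to 0.75 for mt-Tw, -0.88 to 1.90 for mt-Tl1, -0.97 to 0.78 for mt-Tm and -0.68 to 1.64 for mt-Tl2, each lowest without ΔPod 3. In K2A they ran from -0.23 to 0.39 for mt-Nd3, -0.50 to 0.80 for mt-Nd4, -0.85 to 0.79 for mt-Nd5 and -0.22 to 0.43 for mt-Tg. The causes were not tested. Counts per library ran from 211702 to 4861263 on mitochondrial mRNA genes and from 146429 to 799853 on the rRNA genes. The part of depth in their spread was not tested.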
